A study of Mus musculus with 8 samples.

Results

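Some genes had reads in heat-shocked mouse fibroblasts and none in unstressed ones. These were the Ensembl gene identifiers without a value in either unstressed library, with a value in both the chromatin and the cytoplasm library made after heat shock, and with at least 0.1 RPKM (reads scaled to gene length and sequencing depth) in chromatin after heat shock. The rule returned 244 of the 28785 identifiers that carried a value in any library. The members were chosen by their presence in these 4 libraries and by their chromatin RPKM after heat shock, so their absence without heat shock is a description and no result. The rule also asks to leave out histone, stress and chemokine genes. The files carry identifiers without names, and the gene table used here pairs none of them with a symbol, so no identifier was left out on that ground and such genes may be among the 244.

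The cells were mouse embryonic fibroblasts, a connective tissue cell type taken from embryos, of the genotype TSC2+/+ on the C57BL/6J strain, and all groups share both. Unstressed cells were compared with cells kept at 42 °C for 1 h and then returned to 37 °C for 3 h. From each, RNA was sequenced from the cytoplasm and from the pellet left after nuclear lysis, which is taken as chromatin. There was 1 library per fraction and condition, so no difference has a replicate check, no test between conditions was possible, and every interval here covers counting error only. Whether the cells express fibroblast markers was not examined, because that needs gene names. The 4 other samples of the series, m6A immunoprecipitates of chromatin RNA and their inputs, were not analysed here.

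Heat stress activates heat shock factor and a small set of protective genes, while the transcription of many other genes is slowed. It is also known to carry transcription past the normal ends of genes, and the RNA made there tends to stay at chromatin. RNA held at chromatin includes unfinished and unspliced transcripts and long noncoding RNAs, whereas the cytoplasm holds mature messenger RNA. A gene that is silent in unstressed cells can therefore gain reads by its own transcription or by transcription that enters from a neighbour. The files give no gene positions, so the distance of the members to other genes was not analysed, and the part of such read-through in these values was not tested.

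Sequencing depth, recovered from the RPKM values, came to 18364642 reads for unstressed chromatin, 19536459 for chromatin after heat shock, 8292312 for unstressed cytoplasm and 11131382 for cytoplasm after heat shock. The unstressed libraries thus had 94.0% and 74.5% of the depth of the heat-shocked chromatin and cytoplasm libraries. They also listed fewer identifiers, 22804 against 26129 in chromatin and 16818 against 21167 in cytoplasm. The single identifier with the most reads held 1.47e+06 reads in unstressed chromatin and 2.74e+06 in heat-shocked chromatin. In cytoplasm it held 3.70e+06 without and 5.28e+06 after heat shock. The depth left for other identifiers therefore differed less between the conditions than the totals do.

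The members made up 0.848% of all listed identifiers. The same rule with the conditions exchanged returned 25 identifiers, or 0.0869%. These 25 had 1 to 7 reads in unstressed chromatin and at most 4 in unstressed cytoplasm, so none of them reached 10 reads. Of the 244 members, 76 had 10 or more reads in chromatin after heat shock, and 3 had 10 or more in cytoplasm. The imbalance between the directions thus included identifiers with 10 or more reads. The rule used these same reads, so this is a description and no result. With each heat-shocked library thinned to the depth of its unstressed counterpart, and the whole rule applied again over all identifiers, the expected numbers were 198.4 and, with the conditions exchanged, 28.8.

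Together the members took 3763 reads in chromatin after heat shock and 416 reads in cytoplasm after heat shock. This was 0.0193% of the chromatin library (95% Clopper-Pearson interval 0.0187 to 0.0199) and 0.00374% of the cytoplasm library (0.00339 to 0.00411). Relative to the library totals, the summed reads were 5.15-fold higher in chromatin than in cytoplasm. These totals include the identifier with the most reads. After heat shock it held 5.28e+06 of 11131382 reads in cytoplasm and 2.74e+06 of 19536459 in chromatin. Left out of the totals, it would lower this ratio and every other ratio of recovered reads between the fractions given here. Such ratios were not computed. In the unstressed libraries all members were at 0 reads, as the rule required. For 1 member a count of 0 was given a limit of 3 reads. That is 1.63e-05% of the unstressed chromatin library and 3.62e-05% of the unstressed cytoplasm library. This limit does not cover the members together and is not to be set against their summed shares. The chromatin reads were unevenly spread over the members. One member held 20.9% of them, and the 10 members with the most reads over both heat-shocked libraries held 42.0%.

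Most members rested on few reads. In chromatin after heat shock 68 members had 1 read, 48 had 2 or 3, 52 had 4 to 9, 50 had 10 to 39, 23 had 40 to 99, and 3 had 100 or more. In cytoplasm after heat shock 185 members had 1 read, 39 had 2 or 3, 17 had 4 to 9 and 3 had 10 or more. For 61 members a single read was recovered in each library, and 40 members combined 10 or more chromatin reads with 1 cytoplasmic read. The requirement of a cytoplasmic value was thus met by a recovered count of 1 in 75.8% of members. Recovered reads are the lowest that fit the RPKM values, so the true reads of a member can be higher. Across the 244 members the RPKM in chromatin after heat shock ran from 0.100 to 3.35 with a median of 0.246, and that in cytoplasm from 0.00762 to 7.40 with a median of 0.179. At 1 RPKM or more were 27 members in chromatin, 15 in cytoplasm and 8 in both.

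**Figure D1:**
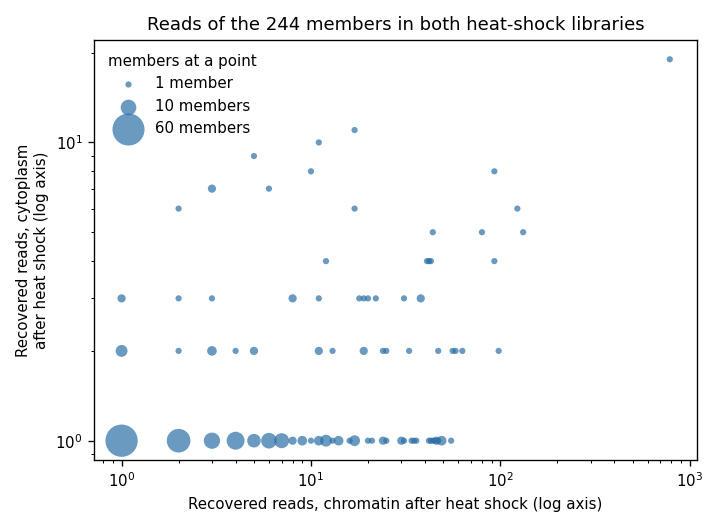
Each point gives the recovered reads of a member in chromatin (horizontal) and cytoplasm (vertical) after heat shock, both on log axes, and the area grows with the number of members at that point. The 61 members with 1 read in each library form the largest point, 185 members lie on the bottom line of 1 cytoplasmic read, and 1 member stands apart at 785 and 19 reads.

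The member with the most reads, ENSMUSG00000037625, spans 14405 bp. It had 785 reads in chromatin after heat shock (exact 95% Poisson interval 731 to 842), or 2.79 RPKM, and 19 reads in cytoplasm after heat shock (11.4 to 29.7), or 0.118 RPKM. It had no read in either unstressed library. Among the 26129 identifiers listed in heat-shocked chromatin it ranked 3652 by reads and 2204 by RPKM, so it lay in the upper part of that library's range. Set against 3 reads per unstressed library, it was at least 246-fold higher after heat shock in chromatin and at least 4.72-fold higher in cytoplasm. These bounds limit the unstressed count and take the heat-shock reads as measured. At the lower end of the interval of those reads they are 229-fold and 2.84-fold. Between the fractions after heat shock it was 23.5-fold higher in chromatin (95% interval 15.0 to 39.3). Without it, the members' summed reads were 2978 in chromatin and 397 in cytoplasm.

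The next member by reads, ENSMUSG00000107667, has the longest span of all members, 38919 bp. It had 132 chromatin reads (110 to 157) and 5 cytoplasmic reads (1.62 to 11.7) after heat shock. Its level was 0.174 RPKM in chromatin and 0.0115 RPKM in cytoplasm. Set against 3 reads in unstressed chromatin, the bound for its chromatin level was 41.4-fold with the heat-shock reads as measured. At the lower end of the interval of those reads it was 34.6-fold. A member of 24284 bp followed, with 123 reads in chromatin and 6 in cytoplasm. These long members had many reads but low RPKM, which divides by the whole span.

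Shorter members reached higher levels with fewer reads. A member of 2636 bp had 93 chromatin reads, 1.81 RPKM, and 8 cytoplasmic reads, 0.273 RPKM. A member of 2448 bp had 80 and 5 reads, at 1.67 RPKM in chromatin and 0.183 RPKM in cytoplasm. One of 1923 bp had 56 and 2 reads, at 1.49 and 0.0934 RPKM. Per kilobase of gene these 3 members had 35.3, 32.7 and 29.1 chromatin reads, against 54.5 for the member with the most reads and 3.39 for the longest. All 3 stood highest in chromatin after heat shock and far lower in cytoplasm after heat shock, and had no read in either unstressed library.

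The 26 members with 40 or more chromatin reads all stood in this order. Their absence without heat shock was required by the rule. They had 1 to 19 cytoplasmic reads, so their higher level in chromatin was largely set by the cut of 40 chromatin reads. Their spans ran from 1770 to 38919 bp, their chromatin levels after heat shock from 0.105 to 2.79 RPKM and their cytoplasmic levels from 0.00762 to 0.273 RPKM. In cytoplasm after heat shock 11 of them had 1 read, 12 had 2 to 5 reads and 3 had more than 5. They were 5.01-fold to 31.3-fold higher in chromatin than in cytoplasm, with a median of 20.7-fold, and the counting interval lay above 1 for all 26. Among all 11911 identifiers with 40 or more reads in heat-shocked chromatin and a read in heat-shocked cytoplasm, the median was 4.76-fold and the quartiles were 2.41-fold and 8.48-fold. The rule bears on that difference, since an identifier without a read in unstressed cytoplasm will tend to be low in cytoplasm. Set against 3 reads in unstressed chromatin, each of the 26 was at least 12.8-fold higher in chromatin after heat shock, with the heat-shock reads as measured. At the lower end of the interval of those reads the smallest of these bounds was 9.22-fold. The rule required absence without heat shock, so these bounds are a description and no result.

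**Figure D2:**
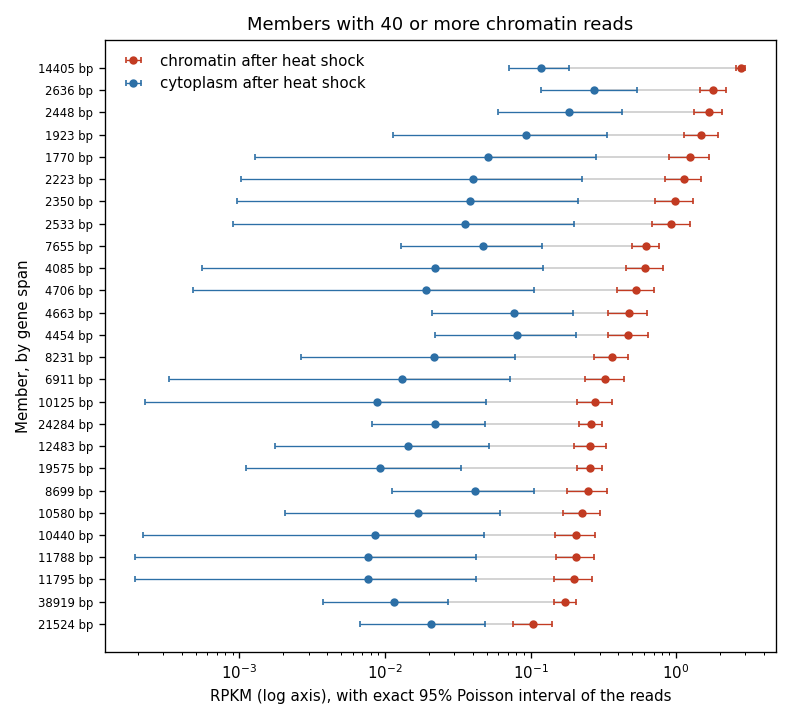
The RPKM of the 26 members with 40 or more chromatin reads is shown on a log axis for chromatin (red) and cytoplasm (blue) after heat shock, with exact 95% Poisson intervals of the reads. Members are labelled by gene span and ordered by chromatin level, from 2.79 RPKM at the top to 0.105 at the bottom, and in every one the chromatin point lies to the right.

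The 10 members with the highest chromatin RPKM were mostly very short. Apart from the member with the most reads, the other 9 spanned 500 bp or less, and the 10 had between 2 and 785 reads. The highest level belonged to a member of 107 bp, at 3.35 RPKM in chromatin from 7 reads (2.81 to 14.4) and at 0.840 RPKM in cytoplasm from 1 read. A member of 201 bp followed with 12 chromatin reads, 3.06 RPKM, and 1 cytoplasmic read, 0.447 RPKM. One of 424 bp had 24 chromatin reads, 2.90 RPKM, and 1 cytoplasmic read, 0.212 RPKM. Only 1 of the 10 members with the most reads was among these 10, so rank by RPKM and rank by reads picked different members.

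The cytoplasmic end of the set was short as well. The 10 members with the highest cytoplasmic RPKM spanned 40 to 630 bp and had 1 to 9 cytoplasmic reads. With so few reads per member, a ranking by RPKM favours short spans, so their shortness is largely set by the ranking. The ranking by chromatin RPKM favours short spans too. The first was a member of 85 bp with 7 cytoplasmic reads (2.81 to 14.4), 7.40 RPKM, and 3 chromatin reads, 1.81 RPKM. The second, of 93 bp, had 6 cytoplasmic reads, 5.80 RPKM, and 2 chromatin reads, 1.10 RPKM. For both, the interval of the ratio between the fractions included 1 (cytoplasm 4.10-fold higher, 0.935 to 24.5, and 5.27-fold higher, 0.941 to 53.3). Spans this short are in the range of small structured RNAs, but no name was at hand to tell.

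Only 3 members had 10 or more reads in each heat-shocked library, namely the one with the most reads, which lay far toward chromatin, one of 4281 bp with 17 chromatin and 11 cytoplasmic reads, and one of 1342 bp with 11 and 10. The last was at 0.420 RPKM in chromatin and 0.669 RPKM in cytoplasm, a ratio of 0.627 (0.242 to 1.65). Members of 537 bp (10 and 8 reads) and 630 bp (5 and 9 reads) also stood higher in cytoplasm by RPKM, at 0.953 against 1.34 and at 0.406 against 1.28. By RPKM, 82 members stood higher in cytoplasm and 162 in chromatin, and the 82 include the 61 with 1 read in each library. Over the 19842 identifiers listed in both heat-shocked libraries, most stood higher in chromatin, with a lower quartile of the log2 ratio of 0.38. In reads not corrected for depth, 13 members had more in cytoplasm than in chromatin.

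Over all 244 members, chromatin was at least 2-fold higher than cytoplasm after heat shock in 116 (47.5%) and at least 2-fold lower in 13 (5.33%). Of the 19842 identifiers listed in both heat-shocked libraries, 64.7% were at least 2-fold higher and 8.49% at least 2-fold lower. On the log2 scale the median ratio between chromatin and cytoplasm was 0.77 for the members and 1.75 for the 19842. The members' value depended on their reads. In the 85 members with 10 or more reads over both libraries it was 2.85, and 78 of them were higher in chromatin. Most members had 1 cytoplasmic read, so this cut picks those with many chromatin reads. The same cut was not applied to the 19842, so 2.85 has no like value to stand against. With 1 read in each library the ratio is set by the library totals alone, at a log2 value of -0.81. The counting interval of the ratio lay above 1 in 62 members (25.4%), below 1 in none, and included 1 in 182. Over the 19842 identifiers it lay above 1 in 61.2% and below 1 in 7.06%, and these had a median of 84 chromatin reads after heat shock against 4 for the members. The minimum of 0.1 RPKM applies to chromatin alone and also raises this ratio, so the split between the fractions is in part a product of the rule. With the median of all identifiers listed in both libraries set to 0, the members' median log2 ratio was -0.97.

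Members were short compared with genes in general. Their spans ran from 40 to 38919 bp with a median of 772 bp, against a median of 11266 bp over all identifiers. By class, 39 members spanned up to 200 bp, 101 over 200 bp to 1 kb, 76 over 1 to 5 kb, 25 over 5 to 20 kb and 3 over 20 to 100 kb, and none was longer. The minimum accounts for much of this, since 0.1 RPKM in heat-shocked chromatin is 1.95 reads per kilobase. An identifier of up to 511.9 bp passes with 1 read, and 106 members were that short. Without the minimum, 1148 identifiers (3.99% of all) were absent from both unstressed libraries and listed in both heat-shocked ones, and their median span was 5961 bp. With the conditions exchanged, 64 (0.222%) were found without a minimum, with a median span of 1104.5 bp.

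The 904 identifiers that the minimum left out were longer and not all thinly read. Their median span was 8759 bp, and 82 of them had 10 or more chromatin reads after heat shock. The one with the most had 127 chromatin and 7 cytoplasmic reads over 67297 bp, which gave 0.0966 RPKM. The 3 identifiers just outside the minimum had 0.0998 to 0.1000 RPKM, from 1, 21 and 1 chromatin reads. The 3 just inside, at 0.100, 0.101 and 0.103 RPKM, had 2, 10 and 20. In every span class the share of identifiers listed only after heat shock exceeded the share listed only without it. Without the minimum it was 3.06% against 0.628% for spans up to 200 bp, 5.60% against 0.752% for over 200 bp to 1 kb, 5.63% against 0.362% for over 1 to 5 kb, 4.39% against 0.0986% for over 5 to 20 kb, 2.78% against 0.0491% for over 20 to 100 kb and 1.46% against 0.0394% above that.

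**Figure D3:**
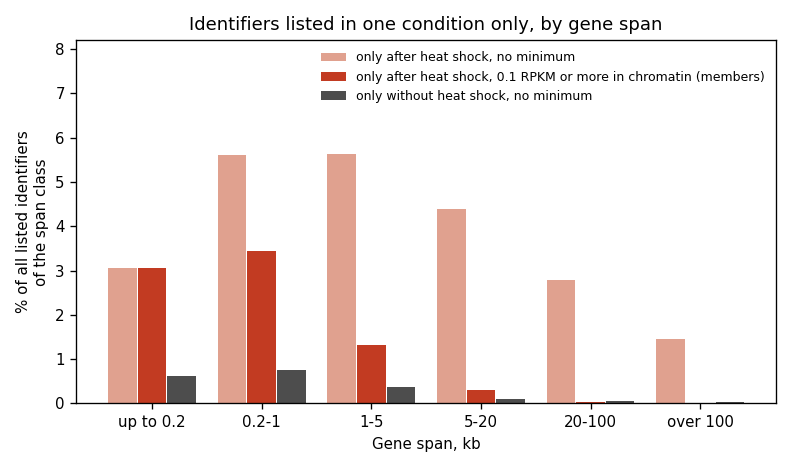
Bars give the share of all listed identifiers of each span class that were listed only after heat shock without a minimum (pale red), the members (red), and those listed only without heat shock without a minimum (grey). The pale red bars stay above the grey ones in all classes, while the red bars fall from 3.45% in the class ending at 1 kb to 0.0368% in the class ending at 100 kb.

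The members belong to a wider difference between the libraries. Of the 16322 identifiers with 10 or more reads in heat-shocked chromatin, 290 (1.78%) were absent from unstressed chromatin, whereas 4 of 14078 (0.0284%) with as many reads in unstressed chromatin were absent after heat shock. In cytoplasm the counts were 176 of 11253 (1.56%) and 2 of 10174 (0.0197%). Among identifiers with 1 read in chromatin, 69.5% of those read after heat shock and 31.3% of those read without it were absent from the other condition. Among those with 10 to 99 reads, the shares were 4.08% and 0.0825%. At 100 or more reads, 11 identifiers of heat-shocked chromatin were absent from unstressed chromatin, 3 of them members, and none the other way round.

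**Figure D4:**
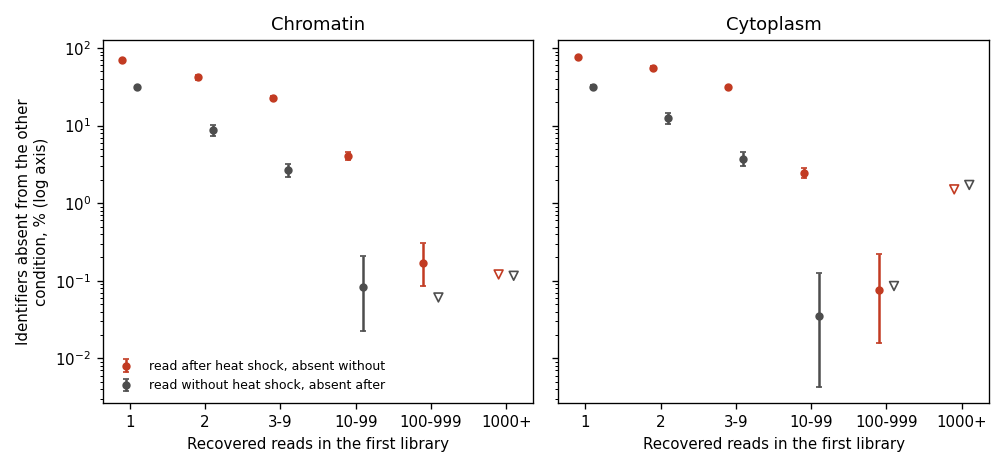
Points give the share of identifiers, by their recovered reads in the first library (horizontal), that were absent from the other condition of the same fraction, on a log axis with 95% Clopper-Pearson intervals. Red points start from the heat-shocked library and grey ones from the unstressed one, and open triangles mark the upper limit where the share was 0. Red lies above grey in both fractions up to 10 to 99 reads.

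Absence from one fraction went only partly with absence from the other. Of the 4687 identifiers listed in chromatin after heat shock alone, 32.6% were listed in heat-shocked cytoplasm and 12.9% in unstressed cytoplasm. Of the 290 among them with 10 or more chromatin reads, 158 were listed in heat-shocked but not in unstressed cytoplasm. The 76 members with 10 or more chromatin reads and the 82 identifiers below the minimum make up these 158. Of the 1362 identifiers listed in chromatin without heat shock alone, 9.91% were listed in unstressed cytoplasm and 22.1% in heat-shocked cytoplasm.

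Allowing 1 read in each unstressed library added 277 identifiers to the members. The border between members and the rest is therefore set by single reads for many identifiers.

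Ensembl hands out its gene numbers broadly in the order in which genes enter the annotation. Of the members, 203 (83.2%) had a number above the median number of all listed identifiers. So had all 25 identifiers found with the conditions exchanged, 56 of the 64 (87.5%) found so without a minimum, and 64.9% of the 1148 listed only after heat shock without a minimum, so the trait is not particular to the members. Span goes with it, since 96.0% of all identifiers up to 1 kb and 97.9% of the 140 members up to 1 kb had such a number. Above 5 kb it was 57.1% of 28 members and 33.6% of all. The numbers were not used by the rule, and they say nothing of what a gene makes.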

How the data were processed

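RNA-seq of chromatin and cytoplasm was analysed, with groups taken from the sample titles. The deposited values are RPKM per Ensembl identifier, made by the authors, and identifiers without a value are not listed. Cutadapt, STAR and GRCm38 are named, without versions, per the submitters' processing notes. Which counter, annotation and strand setting was used is not given in the sources used here, so values of overlapping genes and of genes with near-identical copies are uncertain.

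Library totals were recovered from the RPKM values as the common divisor of inverse RPKM values that were whole within 0.002, over 20000 random pairs (of divisors found at least 0.5 times as often as the commonest, the largest). The lowest reads and length that fit an identifier's values in every library were kept. Reads that share a factor with the length come out too small, with that length, and the recovered reads summed to 98.4% to 99.7% of the totals. The recovery was tested on simulated data, where the library totals came back exactly. That statement covers the totals alone, and how exactly the reads and spans of single identifiers came back is not given here. Members carry values in the heat-shocked libraries alone. Their reads and spans are therefore more open to coming out too small than those of identifiers listed in every library. Lengths reached 4.43 Mb and are treated as gene spans with introns.

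The minimum of 0.1 RPKM was part of the rule. A count of 0 was given a limit of 3 reads per library. Ratios between fractions have exact 95% Clopper-Pearson intervals from the reads, and PCR copies of a molecule were not told apart. No pseudocount was used outside the alternatives. Members described singly were those of highest RPKM in either fraction (10 each), most reads (10), most extreme ratio (5 each way, 10 or more reads) and nearest the minimum (3 each side). The rule named genes by symbol; with none paired, 36 members qualified and are given in part, by span, and others are marked by their reads, having been chosen after their values were seen. The members and the choices were made with earlier results of these data known. Neighbouring genes, promoter motifs, gene types and marker genes need names and were not analysed. Python 3.11.15, numpy 2.4.6, pandas 2.3.3, scipy 1.17.1 and matplotlib 3.10.9 were used.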

Additional observations from a re-analysis of the deposited data

How the results depend on the processing

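No paired analysis was possible because each group has 1 library and the result comes from no test. The number of members, 244 (25 with the conditions exchanged), moved with each choice of threshold. It was 1148 (64) without a minimum RPKM, 401 (38) at 0.05, 143 (12) at 0.2 and 27 (4) at 1 RPKM. It was 30 (0) with at least 3 reads and 3 (0) with at least 10 reads in both libraries, and 521 (68) with at most 1 read in each library of the other condition. Settings chosen after seeing the data, and each exchange of the conditions, gave 1275 (370) for chromatin alone, 1021 (497) for cytoplasm alone, and an expected 198.4 (28.8) with the heat-shocked libraries thinned to the depth of the unstressed ones. More identifiers were listed only after heat shock than only without it in each of these settings that was run in both directions. The members' median log2 ratio between chromatin and cytoplasm was 0.77 on the deposited scale, 0.10 with a pseudocount of 1 RPKM, 0.49 with 0.1 RPKM, 2.03 with equal RPKM sums, 0.93 with the 10 highest identifiers out of the scale and 2.85 for members with 10 or more reads. It reversed to -0.97 with the median of all identifiers listed in both libraries set to 0, which subtracts their median of 1.75. Leaving out the function-based lists and the windows around neighbouring genes were not run, because no identifier could be named or placed. Few reads limit the precision of most members: 185 had 1 recovered cytoplasmic read, and 61 had 1 recovered read in each library.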
